A study of Mus musculus with 135 samples.

Results

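p53 and 8 genes listed as its direct targets were followed in single haematopoietic stem cells (HSCs) of a young and an old mouse. The genes were taken by name (*Trp53*, *Mdm2*, *Mdm4*, *Ccng1*, *Zmat3*, *Gadd45a*, *Gadd45b*, *Gadd45g* and *Trp53inp1*), and all 9 were present among the 15181 genes of the RefSeq read count table. The cells came from bone marrow of Vwf-eGFP reporter mice on a C57BL/6 background, in which a transgene reports *Vwf*, and were sorted as 7AAD-, Lin-, Sca-1+, c-Kit+, CD150+ and CD48-. Young mice were 2 to 3 months and old mice 20 to 25 months of age, and both ages carried the reporter and received no treatment. Each age was 1 mouse, captured on a C1 microfluidic chip in an experiment of its own, so that age, mouse and capture run cannot be told apart, nor can sex, in which the transcripts of both mice differed. Of 61 young and 74 old cells, the 52 and 62 that passed the limits of the study on mapped reads, mitochondrial reads and detected genes were used.

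p53, the product of *Trp53*, is a transcription factor that is held at a low level by continuous degradation and is stabilised when DNA is damaged or growth signals are disturbed. Its best known targets arrest the cell cycle, trigger cell death or repair DNA, and *Mdm2* closes a negative feedback loop because its product marks p53 for degradation. In HSCs, p53 is known for keeping the cells quiescent and for limiting the output of damaged cells. Much of the control of p53 acts on the protein, which was not measured here.

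Read counts were divided by the total of the cell and expressed as CPM (counts per 1000000). The level of a gene is its mean over the cells of an age of log2(CPM + 1), and an expressing cell is one with a value above 2. Differences are old minus young on this scale, which understates the change of low genes. Cells of 1 mouse are not replicates, so no p-value was computed and the differences carry no replicate check. A difference of at least 1 (2-fold) is used as a limit of size. Intervals are 95% exact Clopper-Pearson intervals for shares of cells, and since the reads carry no molecular identifiers they cover counting error only. A share of 0 is instead given with the share that 3 cells would make, as the most that a count of 0 allows.

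The cells used held 273236 to 5688706 counted reads when young (median 2798990) and 276316 to 4086659 when old (median 2116024). *Kit* was expressed in 49 young and 61 old cells, *Hlf* in 49 and 55 and *Mecom* in 43 and 40. *Slamf1*, which encodes the sorted antigen CD150, was detected in 9 and 15. The other HSC genes examined were expressed in 28 and 43 (*Ly6a*), 11 and 24 (*Procr*) and 6 and 14 cells (*Fgd5*). *Cd48* was expressed in 1 young and 0 old cells, where a count of 0 of 62 cells allows a share of up to 4.84%. Of markers of other cells, 3 T cell genes were expressed, when summed, in 21 young and 20 old cells, 4 granulocyte and monocyte genes in 43 and 45 (*Lyz2* alone in 43 and 43), and 2 erythroid genes in 2 and 0, while B cell genes were not analysed here. The summed level of 4 megakaryocyte and platelet genes was above 2 in 21 young and 37 old cells, with means of 2.89 and 4.34. Of the 4, *Pf4* (means of 0.56 and 1.26) and *Gp9* (1.76 and 2.56) were higher in old cells. *Itga2b* (1.72 and 1.66) and *Ppbp* (0.27 and 0.12) were lower. *Xist* was expressed in 50 young and 8 old cells, and 2 young and 58 old cells expressed a Y-linked gene or more of the 4 examined, the pattern of a female young and a male old mouse, and sex cannot be told apart from age here. The part of these differences in the results below was not tested.

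Among the 9 genes, *Gadd45g* was at least 2-fold higher and *Trp53* at least 2-fold lower in old cells, and the other 7 lay within 2-fold. The background was 587 of 15014 genes with a read (3.91%) at least 2-fold higher and 674 (4.49%) at least 2-fold lower, so 1 of 9 genes (11.1%) on each side is a count that a single gene decides. The median difference of the 9 genes was -0.08, with 3 higher and 6 lower, beside a median of -0.02 over all genes. The 9 genes had no common direction between the ages.

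**Figure D1:**
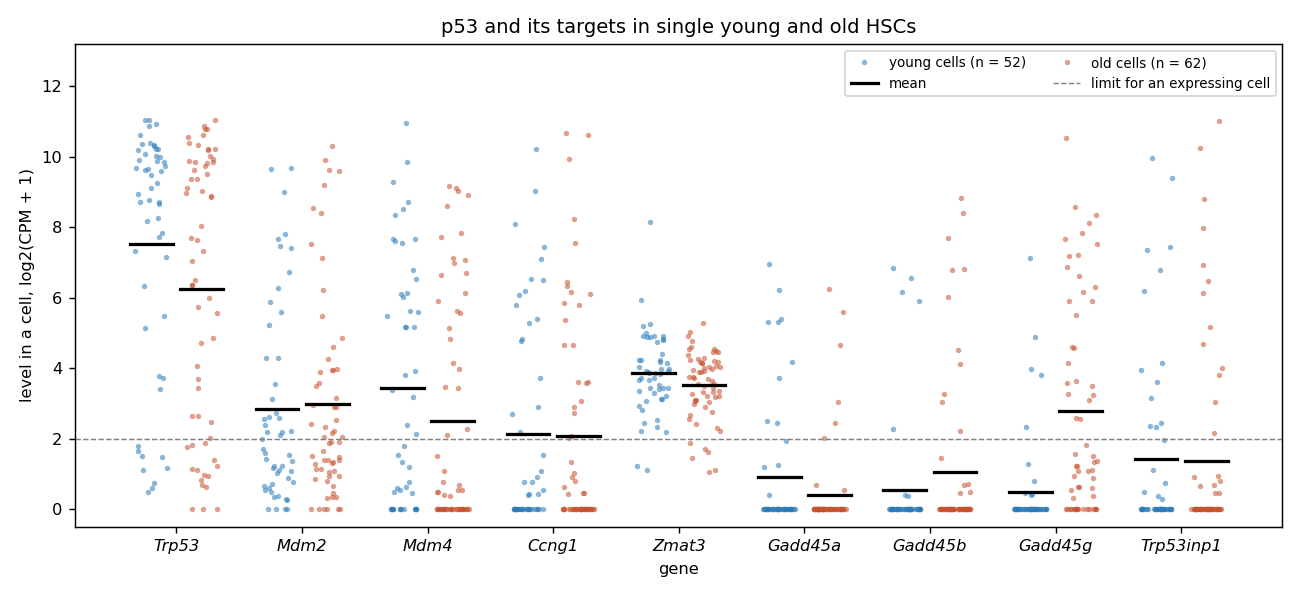
Level of each of the 9 genes in every cell used, as log2(CPM + 1), for 52 young (blue) and 62 old (orange) cells. Black lines are means and the dashed line at 2 is the limit for an expressing cell. *Trp53* was at high levels in most cells of both ages, *Zmat3* kept to a narrow band, and *Gadd45g* was at or near 0 in most young cells and spread up to 10.52 in old cells.

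*Trp53* (chromosome 11, 69580348 to 69591873; gene positions throughout are from RefSeq on GRCm38, that is mm10) was the most widely transcribed of the genes that varied strongly between cells. Its level in single young cells ran from 0.48 through a median of 9.03 to 11.05, and in old cells from 0 through 7.19 to 11.04. The ranges overlapped almost whole, and the ages differed most in their lower part, with a lower quartile of 5.39 in young and 2.13 in old cells. Expressing cells made up 82.7% of young (43 of 52, interval 69.7 to 91.8) and 75.8% of old cells (47 of 62, interval 63.3 to 85.8). The mean level was 7.52 ± 3.45 in young and 6.24 ± 3.82 in old cells (SD over cells), a difference of -1.28. Among expressing cells the median level was 9.62 in young and 9.02 in old cells. All 52 young cells had a *Trp53* read, as did 59 of 62 old cells.

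The difference in *Trp53* lay close to the 2-fold limit. Leaving out each cell in turn, which was done after the values had been seen, gave -1.42 to -1.18. It was -0.99 in the 47 young and 51 old cells with at least 1000000 counted reads, and -0.83 in the cells that expressed no cell cycle gene. The reads summed over cells, 85094 in young and 60006 in old cells, gave a log2 ratio of -0.29 after scaling to the summed totals. After thinning each cell to 250000 reads, where 1 read makes an expressing cell, 47 young and 51 old cells expressed it. RefSeq also lists the pseudogenes *Trp53-ps* and *Mdm4-ps*, and reads shared with them were not separated.

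Among the regulators of p53, *Mdm2* (chromosome 10, 117688875 to 117710758) and *Mdm4* (chromosome 1, 132986105 to 133030587) encode related proteins that inhibit it, *Mdm2* as the ubiquitin ligase. *Mdm2* was alike in both ages in level and share. Its level ran from 0 through a median of 1.85 to 9.69 in young cells and from 0 through 1.97 to 10.31 in old cells. Expressing cells were 25 of 52 young (48.1%, interval 34.01 to 62.37) and 31 of 62 old cells (50%, interval 37.02 to 62.98), and the mean levels of 2.84 ± 2.78 and 2.98 ± 2.87 (SD) differed by 0.14. With summed counts the difference of *Mdm2* was 0.71.

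*Mdm4* was lower in old cells by just less than 2-fold, and on which side of the limit it lay depended on the processing. Its level reached from 0 through a median of 2.25 to 10.96 in young cells and from 0 through 0.49 to 9.17 in old cells. The share of expressing cells was 51.9% in young (27 of 52, interval 37.63 to 65.99) and 38.7% in old cells (24 of 62, interval 26.6 to 51.9), intervals that overlap. The mean level was 3.43 ± 3.40 and 2.49 ± 3.22 (SD), a difference of -0.94, and it was -0.79 to -1.05 when each cell was left out in turn. It was -1.36 over all cells before the limits, -1.48 with a pseudocount of 0.1 CPM and -1.54 with summed counts. The largest share of young *Mdm4* reads, 30.2% of 19319, came from 1 cell (F8). RefSeq places Gm29257 and Gm41953 over the *Mdm4* locus, and reads of overlapping genes were not separated.

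Among the targets, *Ccng1* (chromosome 11, 40748552 to 40755309) encodes cyclin G1, which recruits a phosphatase to MDM2. Its level ran from 0 through a median of 0.41 to 10.21 in young and from 0 through 0 to 10.67 in old cells. It was expressed in 18 of 52 young (34.6%, interval 21.97 to 49.09) and 22 of 62 old cells (35.5%, interval 23.7 to 48.7), with mean levels of 2.15 and 2.06. Its summed reads were 5490 and 12641, but a single old cell (H4) held 45.4% of the latter.

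*Trp53inp1* (chromosome 4, 11156441 to 11174379), which encodes a nuclear protein that acts in the p53 response and in autophagy, also had similar values in both ages. Its level ran from 0 through a median of 0 to 9.96 in young and 11.02 in old cells. It was expressed in 13 of 52 young (25.0%, interval 14.03 to 38.95) and 13 of 62 old cells (20.97%, interval 11.7 to 33.2), with mean levels of 1.43 and 1.38. With summed counts the difference of *Trp53inp1* was 0.92.

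*Zmat3* (chromosome 3, 32334792 to 32365665), which encodes an RNA-binding zinc finger protein that acts on splicing, was found at a low and even level. It had at least 1 read in every young and old cell used, with a median count of 28.5, and its level ran from 1.12 through 3.87 to 8.16 in young and from 1.06 through 3.71 to 5.28 in old cells. The SD over cells was 1.16 in young and 0.96 in old cells, where the SD of *Trp53* was 3.45 and 3.82. It was expressed in 50 of 52 young (96.2%, interval 86.8 to 99.5) and 56 of 62 old cells (90.3%, interval 80.1 to 96.4), and its mean levels of 3.85 and 3.52 differed by -0.33. A read in every cell was shared by 815 genes, whose median level was 5.86, and 24 of these 815 had a lower level than *Zmat3*. RefSeq places 4930429B21Rik over the *Zmat3* locus, and reads of overlapping genes were not separated.

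**Figure D2:**
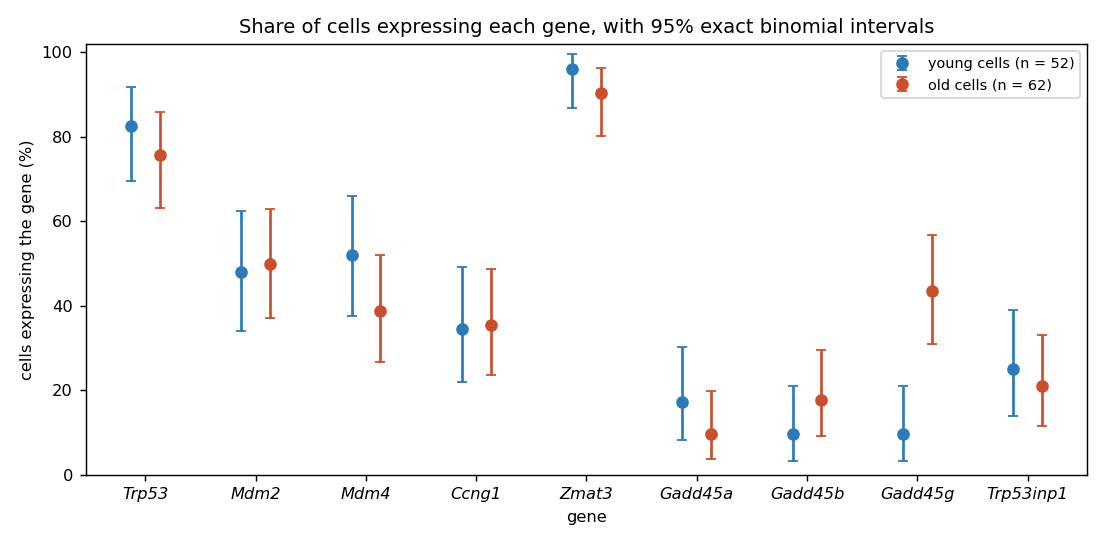
Share of young (blue, n = 52) and old (orange, n = 62) cells that expressed each gene, in percent, with 95% exact binomial intervals for counting error. The young and old intervals of *Gadd45g* were 3.20 to 21.03 and 30.99 to 56.74. How often such intervals part over all genes was not computed, and they do not cover differences between mice.

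The *Gadd45* genes encode small stress proteins that bind cyclin-dependent kinase 1, PCNA and the kinase MAP3K4. *Gadd45a* is the classical p53 target among them, and *Gadd45b* and *Gadd45g* are also known as early response genes of cytokine signalling. Their 250 bases before the RefSeq start (GRCm38.p6, on the strand of the gene) are shown. Whether motifs in them bear on the levels was not tested. Capitals mark the p53 decamer, the 10-base consensus of which a p53 response element holds a pair, or the TATA box motif TATAAA.
Gadd45a, chr6:67037408-67037657, minus strand: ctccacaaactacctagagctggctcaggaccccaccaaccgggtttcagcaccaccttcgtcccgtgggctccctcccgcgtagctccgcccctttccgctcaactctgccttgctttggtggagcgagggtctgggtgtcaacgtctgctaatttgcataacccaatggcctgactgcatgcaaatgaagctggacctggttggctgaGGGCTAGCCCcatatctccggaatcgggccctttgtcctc
Gadd45b, chr10:80929841-80930090, plus strand: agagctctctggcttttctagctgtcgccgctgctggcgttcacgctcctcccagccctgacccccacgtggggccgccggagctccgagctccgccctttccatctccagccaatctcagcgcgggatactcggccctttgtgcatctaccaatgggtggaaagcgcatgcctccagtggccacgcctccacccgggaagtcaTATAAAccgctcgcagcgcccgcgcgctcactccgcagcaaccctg
Gadd45g, chr13:51846425-51846674, plus strand: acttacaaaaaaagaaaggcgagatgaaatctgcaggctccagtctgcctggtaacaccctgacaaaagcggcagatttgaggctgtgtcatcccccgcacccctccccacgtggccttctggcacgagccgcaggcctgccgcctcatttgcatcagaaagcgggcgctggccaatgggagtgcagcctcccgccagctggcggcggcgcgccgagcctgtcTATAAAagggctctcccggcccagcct

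*Gadd45g* (chromosome 13, 51846675 to 51848475) was the gene of the 9 that differed most between the ages. Its level in young cells ran from 0 through a median of 0 to 7.13, and in old cells from 0 through 1.35 to 10.52. The upper quartile was 0 in young and 5.28 in old cells, while both ages included cells without a read (42 of 52 young and 17 of 62 old cells). Expressing cells made up 9.62% of young (5 of 52, interval 3.20 to 21.03) and 43.5% of old cells (27 of 62, interval 30.99 to 56.74). The mean level was 0.49 ± 1.41 in young and 2.80 ± 3.00 in old cells (SD), a difference of 2.31, which stood at rank 53 from the highest of 15014 genes.

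The higher *Gadd45g* level of old cells did not rest on a single cell. Summed reads were 764 in young cells, of which cell D6 held 73.4%, and 9663 in old cells, of which cell E10 held 40.6%. With each cell left out in turn the difference was 2.18 to 2.44. In the thinned cells, 5 of 52 young and 33 of 62 old cells expressed it.

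**Figure D3:**
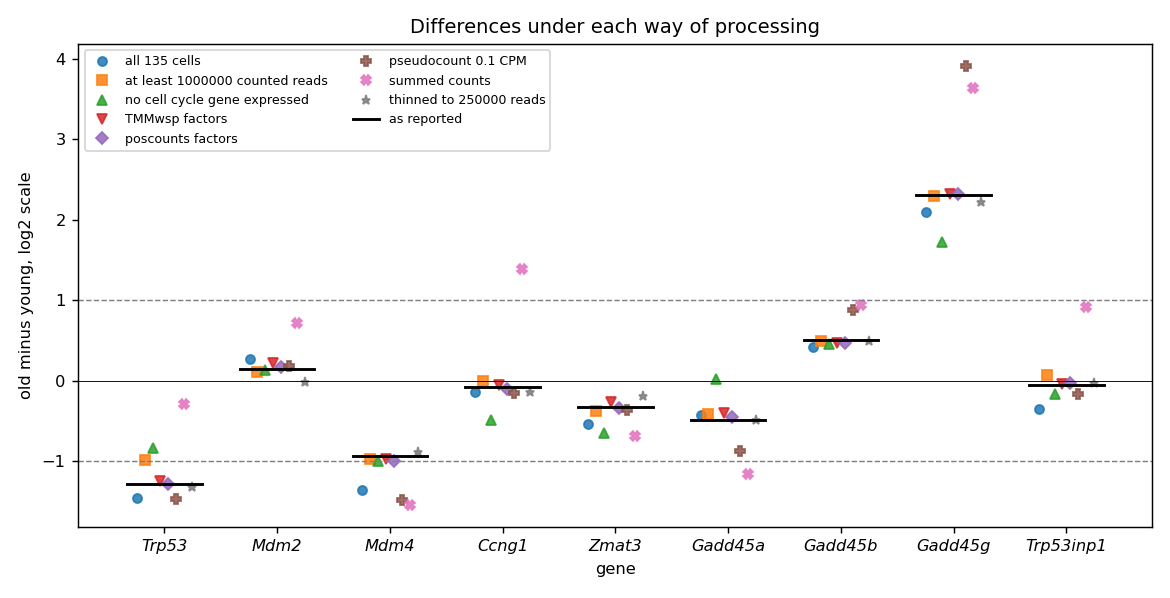
Old minus young difference of each of the 9 genes on the log2 scale as reported (black lines) and under 8 other ways of processing (symbols). *Gadd45g* lay above 1 under each of them (1.72 to 3.91), and *Trp53* crossed the limit of -1 (dashed line, -1.47 to -0.29). Summed counts stood furthest from the reported value for every gene except *Gadd45g*.

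*Gadd45b* (chromosome 10, 80930091 to 80932204) was also somewhat higher in old cells, and *Gadd45a* (chromosome 6, 67035096 to 67037407) somewhat lower, both within 2-fold. *Gadd45b* levels ran from 0 through a median of 0 to 6.86 in young and 8.82 in old cells, and it was expressed in 5 of 52 young (9.62%, interval 3.20 to 21.03) and 11 of 62 old cells (17.7%, interval 9.20 to 29.5). Its mean levels of 0.55 and 1.06 differed by 0.51. *Gadd45a* levels ran from 0 through a median of 0 to 6.94 in young and 6.26 in old cells, and it was expressed in 9 of 52 young (17.3%, interval 8.23 to 30.3) and 6 of 62 old cells (9.68%, interval 3.63 to 19.9). Its mean levels of 0.90 and 0.41 differed by -0.49. The gene E230016M11Rik, which is also in the table, overlaps *Gadd45a*, and strand was not stated for the counting.

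Few cells expressed more than 1 gene of the *Gadd45* family. How many the shares of the single genes alone would give was not computed. At least 1 of the 3 was expressed in 17 of 52 young (32.7%, interval 20.3 to 47.1) and 38 of 62 old cells (61.3%, interval 48.1 to 73.4). Cells with 2 of them numbered 2 young and 6 old, and no cell expressed all 3, which allows a share of up to 5.77% of young and 4.84% of old cells.

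The p53 decamer was searched on both strands, which for this consensus read alike, in the 250 bases before each start, and TATAAA on both strands. RefSeq promoters of 7 of the 9 genes were read (8 promoters, with a pair for *Mdm4*). The decamer was found in 4 of 8 (50%), those of *Trp53*, *Mdm2*, *Ccng1* and *Gadd45a*, and in 7.13% of 32851 promoters of all genes. TATAAA was found in 3 of 8 (37.5%), those of *Trp53*, *Gadd45b* and *Gadd45g*, and in 12.4% of all promoters. The matches did not overlap each other. Counted from the start, the decamer of *Gadd45a* began at -40, and TATAAA began at -46 in *Gadd45b* and at -27 in *Gadd45g*. The match of *Trp53* to TATAAA lay on the opposite strand and began at -248. For the 3 other genes with a decamer, the 60 bases around it are given with the decamer in capitals, since the letters differ from gene to gene.
Trp53, chr11:69580259-69580318, plus strand: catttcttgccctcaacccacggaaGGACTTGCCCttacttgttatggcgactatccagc
Mdm2, chr10:117710910-117710969, minus strand: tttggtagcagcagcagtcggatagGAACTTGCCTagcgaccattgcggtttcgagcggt
Ccng1, chr11:40755437-40755496, minus strand: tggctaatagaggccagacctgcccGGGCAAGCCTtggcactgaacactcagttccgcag

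Counted from the start, these matches began at -75 in *Trp53*, -186 in *Mdm2* and -185 in *Ccng1*. The genes with a decamer were not on the same side in the comparison of ages, with differences of -1.28 (*Trp53*), -0.49 (*Gadd45a*), -0.08 (*Ccng1*) and 0.14 (*Mdm2*). A match to a consensus is a description of the sequence and not a measured site of binding.

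Per kilobase of the longest GENCODE transcript paired with a RefSeq transcript, which allows levels to be set between genes, *Trp53* was first in both ages, at a mean of 350.1 CPM per kilobase in young and 261 in old cells (SD 328 and 318). In young cells *Mdm2* (20.7), *Mdm4* (16.6), *Ccng1* (15.5), *Trp53inp1* (8.01), *Gadd45a* (5.64), *Gadd45b* (5.11), *Gadd45g* (3.63) and *Zmat3* (2.69) followed in that order. In old cells the order was *Gadd45g* (60.6), *Mdm2* (29.98), *Ccng1* (23.99), *Gadd45b* (16.8), *Trp53inp1* (12.99), *Mdm4* (8.87), *Gadd45a* (2.14) and *Zmat3* (1.64). *Gadd45g* was thus in place 8 in young and 2 in old cells, and *Mdm4* in place 3 and 7. Single cells carried part of these means, as was examined after they had been seen. Without cell D6 the young *Gadd45g* mean was 1.16, in place 9, without E10 the old one was 39.2, in place 2, and without F8 the young *Mdm4* mean was 11.5, in place 4. Of all neighbours in these orders, *Trp53* and *Mdm2* in young cells were the sole pair whose means differed by more than the larger of their SDs over cells (329.4 against 328.3). *Zmat3* was last although it was found in every cell.

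A cell expressed on average 3.75 ± 1.23 of the 9 genes when young and 3.82 ± 1.27 when old (SD), with a median of 4 and a range of 1 to 7 in both ages. Cells with 2 or fewer numbered 6 young and 9 old, those with 3 to 5 numbered 42 and 47, and those with 6 or more numbered 4 and 6. The number of these genes per cell therefore differed by less than its spread.

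Co-variation of the 9 genes from cell to cell was weak. Over the 36 pairs, Spearman's rho of log2(CPM + 1) lay between -0.22 and 0.36 in young cells (median 0.08, n = 52) and between -0.14 and 0.35 in old cells (median 0.01, n = 62). For all pairs of the 6043 genes that at least 20% of the cells of each age expressed, the median was 0.03 in each age, and 95% of pairs lay between -0.26 and 0.32 (young) and between -0.23 and 0.31 (old). The highest pair in young cells, *Mdm4* with *Gadd45g* (0.36), stood at -0.14 in old cells, and the highest in old cells, *Mdm4* with *Gadd45a* (0.35), stood at 0.09 in young cells. The cells of an age share 1 mouse and run and differ in depth, and these values are descriptions with no p.

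**Figure D4:**
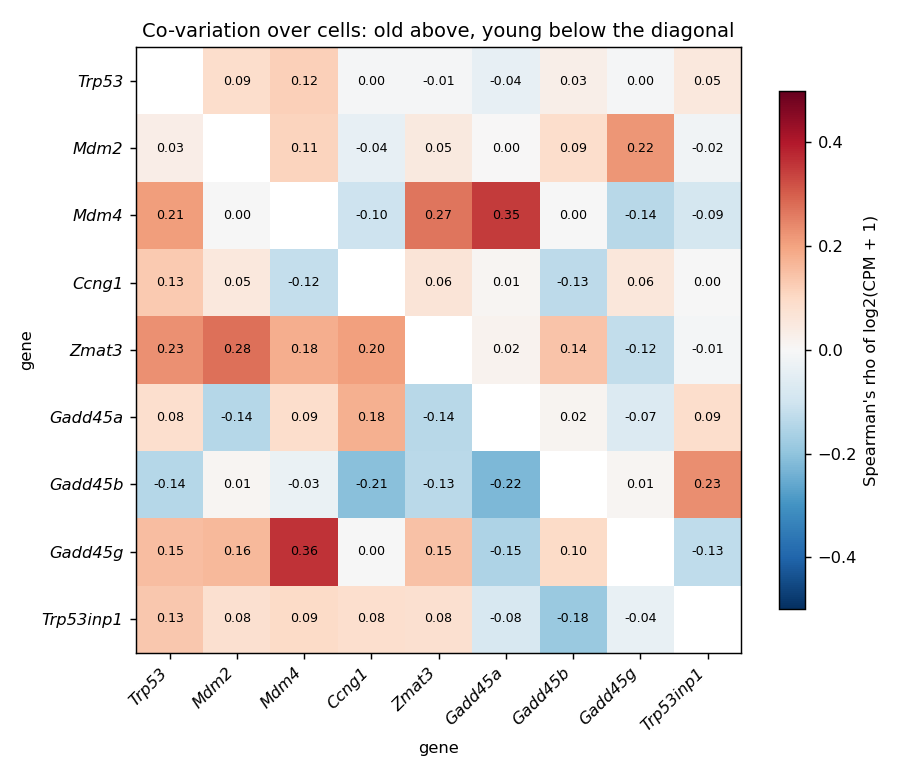
Spearman's rho between the levels of each pair of the 9 genes over single cells, with old cells (n = 62) above and young cells (n = 52) below the diagonal. Colours run from -0.5 (blue) to 0.5 (red). The highest pair of young cells stood at -0.14 in old cells, and the highest pair of old cells at 0.09 in young cells.

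*Trp53* itself had rho values between -0.14 and 0.23 with the other 8 genes in young cells (median 0.13) and between -0.04 and 0.12 in old cells (median 0.01). Young cells that expressed *Trp53* expressed *Trp53inp1* in 13 of 43 cells, and young cells that did not in 0 of 9, a number that would allow a share of up to 33.3%. In old cells the same counts were 10 of 47 and 3 of 15. *Mdm2* was expressed in 22 of 43 young cells with and 3 of 9 without *Trp53* expression, and in 23 of 47 and 8 of 15 old cells. *Gadd45g* was expressed in 20 of 47 old cells with and 7 of 15 without *Trp53* expression.

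The genes with the most similar pattern over cells, by the mean of the rho within young and within old cells among the 6043 genes, were *Rapgefl1*, *Trim43b* and *Bmpr2* for *Trp53* (each 0.34), *Gngt1* (0.38), *Clk4* (0.36) and *Ift46* (0.35) for *Mdm2*, and *Arpc4* (0.39), *Pop4* and *Snrpa1* (both 0.38) for *Mdm4*. They were *Krcc1* (0.38), *Txndc9* (0.33) and *Eci2* (0.30) for *Ccng1*, and *Prpsap1* (0.38), *Cd22* (0.37) and *Fam160b1* (0.34) for *Trp53inp1*. For *Zmat3* the values were higher, at 0.58 with *Camk4*, 0.58 with *Zfp459* and 0.57 with *Gm10636*. No *Gadd45* gene was expressed in 20% of the cells of both ages, so none was placed.

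More young than old cells expressed at least 1 of the cell cycle genes *Ccna2*, *Ccnb1*, *Cdk1* and *Cdc25c*, 27 of 52 against 13 of 62. Among the 25 young and 49 old cells that expressed none, the difference of *Gadd45g* was 1.72, that of *Mdm4* -0.996 and that of *Trp53* -0.83. Without a cycle gene, *Gadd45g* was expressed in 4 of 25 young cells and in 20 of 49 old cells, and with one in 1 of 27 and 7 of 13. *Gadd45a*, which in all cells was lower with age, differed by 0.02 in the cells without a cycle gene. It was expressed in 7 of 27 young cells with a cycle gene and in 2 of 25 without, and in old cells in 0 of 13 (which allows up to 23.1%) and 6 of 49. The other 5 genes differed by -0.66 (*Zmat3*) to 0.46 (*Gadd45b*) in cells without a cycle gene.

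Immediate-early genes were also higher in old cells. The mean level of 10 of them (*Fos*, *Fosb*, *Jun*, *Junb*, *Egr1*, *Ier2*, *Nr4a1*, *Atf3*, *Zfp36* and *Dusp1*) was 5.43 ± 1.32 in young and 6.91 ± 1.18 in old cells (SD over cells). Within an age, rho between this mean and *Gadd45g* was -0.06 in young and -0.19 in old cells, and with *Gadd45b* -0.19 and 0.13. The number of genes expressed in a cell had a rho of 0.17 in young and 0.43 in old cells with *Trp53*, and of 0.05 and 0.38 with *Mdm4*, where the median over the 6043 genes was 0.15 and 0.16. The part of the immediate-early genes and of gene number in the differences between the ages was not tested.

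A wider list of 63 genes of the p53 network, of which 58 were in the table, had 4 genes (6.90%) at least 2-fold higher in old cells, 3 (5.17%) at least 2-fold lower and 51 within 2-fold. The background was 3.91% and 4.49% of all genes, and the median difference of the list was 0.05. Against these shares, a count of 0 in a role of few genes says nothing about that role. The other 5 listed genes were not analysed here.

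**Figure D5:**
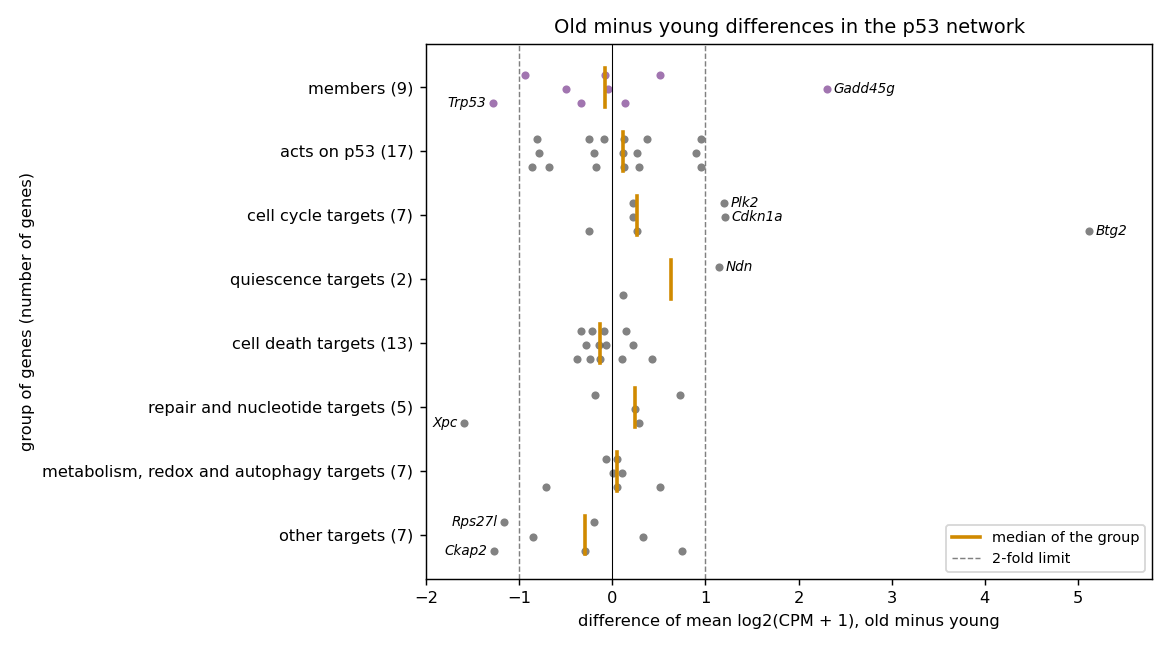
Difference of mean log2(CPM + 1), old minus young, for the 9 genes (purple) and for 58 further genes of the p53 network by role (grey). Orange bars are group medians and dashed lines the 2-fold limits, and genes past a limit are named. Over all genes, 3.91% lay past the upper and 4.49% past the lower limit.

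Of the cell cycle targets, 3 of 7 (42.9%) were at least 2-fold higher in old cells and 0 lower, beside 3.91% and 4.49% of all genes. The list was chosen with earlier results of these data known, and *Btg2* alone of the 3 was past 2-fold under each alternative. *Cdkn1a*, which encodes the kinase inhibitor p21, was expressed in 2 of 52 young (3.85%, interval 0.469 to 13.21) and 16 of 62 old cells (25.8%, interval 15.5 to 38.5), with mean levels of 0.33 and 1.54. *Btg2*, an antiproliferative gene that is also an immediate-early gene, had mean levels of 1.73 and 6.85 and was the third highest difference of all genes (5.12). *Plk2*, a polo-like kinase gene, had mean levels of 2.34 and 3.54, a difference of 1.20, but 17279 and 17438 summed reads, which gave 0.22. *Sfn* differed by 0.27. In old cells *Cdkn1a* was expressed in 7 of 13 cells with and 9 of 49 cells without a cycle gene, and over the cells without one its difference was 0.98 in place of 1.21, and it was 0.85 in cells with at least 1000000 counted reads. Of the 2 targets tied to HSC quiescence, 1 (50%) was at least 2-fold higher in old cells, beside 3.91% of all genes. This was *Ndn*, which encodes the growth suppressor necdin, with mean levels of 1.23 and 2.38 (a difference of 1.14). *Gfi1* differed by 0.11. The difference of *Ndn* was 2.05 in cells without a cycle gene and 0.84 with summed counts.

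Of 13 cell death targets 0 passed 2-fold on either side, beside 3.91% and 4.49% of all genes. Their median difference was -0.13, and those with the largest differences were *Ei24* (0.43), *Aen* (-0.38), *Pidd1* (-0.34) and *Bbc3* (-0.28), which encodes the death protein PUMA. Mean levels were 0.64 and 1.07 for *Ei24* and 0.38 and 0.10 for *Bbc3*, at which a difference may not be detectable.

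Of 5 repair and nucleotide targets, 1 (20%) was at least 2-fold lower in old cells and 0 higher, beside 4.49% and 3.91% of all genes. This was *Xpc*, which encodes a sensor of DNA lesions in nucleotide excision repair. Its mean level was 3.10 in young and 1.51 in old cells, and expressing cells were 30 of 52 (57.7%, interval 43.2 to 71.3) and 17 of 62 (27.4%, interval 16.9 to 40.2). The difference was -1.59, or -1.73 in the cells without a cycle gene. *Rrm2b*, a subunit gene of ribonucleotide reductase, differed by 0.73, *Polk* by 0.29 and *Ddb2* by 0.24. Of 7 metabolism, redox and autophagy targets 0 passed 2-fold on either side, beside 3.91% and 4.49% of all genes. *Prkab1* differed by -0.71, *Sesn1* by 0.52, *Sesn2* by 0.10 and *Gls2* by -0.07.

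Of 7 other targets, 2 (28.6%) were at least 2-fold lower in old cells and 0 higher, beside 4.49% and 3.91% of all genes. These were *Ckap2*, a mitotic gene, and *Rps27l*, a ribosomal protein gene, at mean levels of 1.88 and 0.61 and of 5.29 and 4.14. In cells without a cycle gene these differences were 0.00 and -0.27 in place of -1.27 and -1.16, and that of *Rps27l* was -0.83 over all cells before the limits, -0.94 in cells with at least 1000000 counted reads and -0.95 with summed counts. *Psrc1* differed by -0.85 and *Cd82* by 0.75.

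Of 17 genes whose products act on p53, 0 passed 2-fold on either side, beside 3.91% and 4.49% of all genes. *Hipk2*, a kinase gene, differed by 0.96, *Trp53bp1*, which encodes the repair factor 53BP1, by 0.95, *Ppp1r13b*, which encodes the cofactor ASPP1, by 0.90, and *Chek2*, a checkpoint kinase gene, by -0.86. *Atm*, which encodes the kinase at the head of the response to double-strand breaks, had mean levels of 3.98 and 4.09, with 35 of 52 young cells and 47 of 62 old cells expressing it.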

How the data were processed

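Single HSCs of 1 young and 1 old mouse were captured on C1 chips, and libraries were read as single 51 base reads. The authors mapped the reads to mm10 with TopHat 2.0.10 (1 alignment per read, RefSeq gene models) and counted them with rpkmforgenes, whose version is not given in the sources used here. The deposited values are read counts per gene and cell, without normalization. Whether strand was used in counting was not stated.

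Counts were divided by the total of the cell to give CPM, with a pseudocount of 1 CPM for log2. Cells were kept by the limits of the study (at least 500000 mapped reads, at most 10% mitochondrial reads, at least 3000 genes), applied to its values per cell, which left 52 of 61 young and 62 of 74 old cells. Counted reads per cell used ran from 273236 to 5688706, and no 2 cells held identical counts. Of the 15181 entries, 21 join several gene names. With 1 mouse an age no test was made, and differences were set beside all 15014 genes with a read. The members and lists were chosen with earlier results of these data known. The text names all 9 members, genes of the wider list that differ by at least 1 or are among the 4 largest differences of their role, and the 3 closest genes in pattern of each member expressed in at least 20% of the cells of both ages. *Atm* was chosen after its values were seen. Promoters were those of RefSeq (GRCm38.p6), read from 250 bases before the start.

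Alternatives covered the cells used, TMMwsp factors (edgeR 4.0.16), poscounts factors (DESeq2 1.42.0), a pseudocount of 0.1 CPM, summed counts, thinning to 250000 reads, other limits for expression, a filter at 10% of cells, and Pearson's r in place of rho. Leaving out each cell in turn, or the highest cell of a gene for the order per length, was chosen after seeing the data. The calculation of differences was checked on simulated counts. Python 3.11.15, numpy 2.4.6, pandas 2.3.3, scipy 1.17.1 and R 4.3.3 were used.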

Additional observations from a re-analysis of the deposited data

How the results depend on the processing

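The number of the 9 genes at least 2-fold higher in old cells was 1 and became 2 with summed counts, where *Ccng1* stood at 1.39, and was 1 whichever cell was left out. The number at least 2-fold lower was 1 and became 2 with all cells, with poscounts factors, with a pseudocount of 0.1 CPM (*Trp53* and *Mdm4*) and with summed counts (*Mdm4* and *Gadd45a*, at -1.54 and -1.16), 0 in cells with at least 1000000 counted reads and in cells with no cycle gene, and 1 to 2 when each cell was left out in turn. The median difference of the 9 genes was 0.71 with summed counts. Of the wider list, 9 genes were higher and 7 lower with a pseudocount of 0.1 CPM, 11 and 13 with summed counts, and 1 was lower in cells with no cycle gene. Over all genes the share at least 2-fold higher was 7.47% in cells with no cycle gene, 8.21% with a pseudocount of 0.1 CPM, 17.7% with summed counts and 6.24% for genes that at least 10% of cells expressed, and the share at least 2-fold lower was 10.9%, 17.6% and 6.98% in the last 3 settings. At a limit of 1 counted read a cell expressed 5.10 of the 9 genes when young and 5.32 when old. *Ckap2* turned from -1.27 to 0.00168 in cells with no cycle gene. *Gadd45g* had differences of 1.72 to 3.91 and *Trp53* of -1.47 to -0.29. The causes of these shifts were not tested. The median of all genes was between -0.07 and 0.02. Of the differences and shares of single genes, 162 stayed within their tolerance and 37 moved. A change of sign was counted only for reported differences of at least 1, where there was 1 (*Ckap2*). Smaller differences that changed sign are within the 162 and 37. Among them, with summed counts, *Ccng1* went from -0.08 to 1.39 and *Trp53inp1* from -0.05 to 0.92. Of the summary values, the pairs included, 73 stayed and 23 moved. No paired analysis was possible because each age is 1 mouse and cell numbers only name the cells, and for the same reason no replicate could be left out. Depth limits the low genes, since 1 read in the shallowest cells is already above the limit for expression.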

Other observations

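*Zmat3* and the 3 genes closest to it in pattern were alike in detection. A choice by rho with a gene read in every cell can favour such genes, so this is not independent of the choice. *Camk4*, *Zfp459* and *Gm10636*, like *Zmat3*, had at least 1 read in every cell used. Their levels had means of 5.55, 5.28 and 4.005 and SDs over cells of 0.96, 0.78 and 0.76, beside 3.67 and 1.06 for *Zmat3*. Each was slightly lower in old cells, at 5.74 and 5.39 for *Camk4*, 5.38 and 5.20 for *Zfp459* and 4.11 and 3.92 for *Gm10636*. In old cells the level of *Zmat3* had a rho of -0.28 with the total count of the cell, and in young cells of -0.33, where the median over 6043 genes was -0.08 and -0.09.

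In the cells that the limits of the study left out, 9 young and 12 old, *Trp53* was expressed in 6 and 8, *Mdm4* in 4 and 0, *Gadd45g* in 0 and 3 and *Ccng1* in 0 and 0. These cells held as few as 4610 counted reads.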
